A study of Mus musculus with 13 samples.

Results

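The comparison described here is between Oct4-GFP-negative cells picked from mouse fibroblast cultures treated with small molecules and the untreated fibroblasts. Its members are 5 of the 13 libraries of the study, 2 of GFP-negative cells and 3 of mouse embryonic fibroblasts (MEF), taken by their labels and compared over all genes with a unique symbol. The study followed fibroblasts towards pluripotency with compounds alone and sequenced RNA from MEF, GFP-negative cells, GFP-positive clusters, GFP-positive colonies, embryonic stem cells (ESC) and chemically induced pluripotent stem cells (CiPSC). All 5 libraries compared here are total RNA of embryonic fibroblasts of strain C57xICR. MEF were labelled as receiving no treatment and were grown in DMEM/High Glucose with fetal bovine serum. The GFP-negative cells carried the treatment code VC6TF and were picked up from the culture for RNA. In the published method this code stands for valproic acid, which inhibits histone deacetylases, CHIR99021, which inhibits the kinase GSK3, an inhibitor of the type I TGF-beta receptor kinase, tranylcypromine, which inhibits monoamine oxidases and the histone demethylase LSD1, and forskolin, which activates adenylyl cyclase. The labels give neither the length of treatment nor the medium of the treated cells, so treatment, time in culture, medium and picking cannot be told apart here. No label says that libraries of a group came from separate cultures, so the p-values measure only a spread between libraries, which may be technical. That spread is estimated within the groups of all 13 libraries, not from the 5 compared libraries alone.

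As background, adenylyl cyclase makes cyclic AMP, which activates protein kinase A and, through it, the transcription factor CREB at the promoters of genes such as Fos, Nr4a1 and Crem. Fibroblasts in serum make contractile actin filaments, collagens and matricellular proteins, and much of that program is under the control of TGF-beta through SMAD proteins and of serum through the factor SRF. The kinase inhibitor p21, encoded by Cdkn1a, stops the cell cycle and is known to be induced both by p53 and by inhibitors of histone deacetylases.

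Values are RPKM (read counts divided by the length of the gene, introns included, and by the reads of the library), which allow a gene to be compared between libraries but not 1 gene with another. Values are listed in the order MEF replicates 1, 2 and 3, then GFP-negative replicates 1 and 2. A log2 change is the difference of the group means of log2(RPKM + 1), GFP-negative minus MEF, with its standard error (SE), and understates the change of genes near 0. A gene is said to have risen or fallen, or to be called, where the p-value of limma, adjusted over 10647 tested genes, was under 0.05 and the log2 change was 1 or more in size. Where leaving out 1 library ended the call of a named gene, the adjusted p without that library follows, or the log2 change where that was the criterion missed.

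The libraries were of similar estimated depth, 9.58 to 17.68 M reads, but not of similar quality as replicates. MEF replicates 1 and 2 had a Pearson r of 0.962 over the tested genes, and MEF replicate 3 stood apart from them (r = 0.863 and 0.870). It writes unmeasured genes as 0.001 where the other 4 libraries hold exact zeros, its RPKM sum is 119415 against 74259 and 72329, and its summed level of the 11 measured macrophage and blood markers is 267.6 RPKM against 21.3 and 32.5. The GFP-negative libraries had an r of 0.803 with each other, below the 0.830 between GFP-negative replicate 2 and MEF replicate 2. Among 1351 genes at 10 RPKM or more in either GFP-negative library, 283 differed over 4-fold between the 2 libraries (RPKM + 1), against 10 of 1132 between MEF replicates 1 and 2 and 241 of 1489 between MEF replicates 1 and 3. GFP-negative replicate 1 was the lower of the pair in 60.7% of tested genes. Reads of overlapping genes on opposite strands, or of close paralogs, may be split or shared, since no source used here gives how reads were counted or whether strand was used.

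In the fit of all 13 libraries 811 of 10647 tested genes (7.62%) were called, 376 higher (3.53%) and 435 lower (4.09%) in GFP-negative cells. This count rests on a spread pooled over all groups, ESC and CiPSC included. The tested genes reached 1 RPKM in 2 or more of the 13 libraries, so some passed through other groups alone. With 1 RPKM required in 2 of the 5 compared libraries, 983 of 6681 genes were called (14.7%, with 417 higher and 566 lower). The 3.53% and 4.09% are the shares to set beside each gene list below, and they depend on this filter. With the 5 libraries alone limma called 5 genes (0.047%) at the same thresholds, 3 higher (0.0282%) and 2 lower (0.0188%), while 2081 genes had an unadjusted p under 0.05. These 5 were Ptgs2, Stc1 and Fgl2, all higher, and Mfap4 and Gadd45g, both lower, and they were called in all 16 alternative fits. Without GFP-negative replicate 2 the count was 1499 (14.1%, with 6.65% higher and 7.43% lower), and without replicate 1 it was 593 (5.57%, with 3.65% higher and 1.92% lower). The share of tested genes called was 5.28% without MEF replicate 1 (2.46% higher, 2.82% lower) and 5.49% without MEF replicate 2 (2.58% higher, 2.9% lower). It was 7.78% without MEF replicate 3 (3.45% higher, 4.33% lower). Of the 811 genes, 643 (79.3%) were called in the same direction without MEF replicate 3, and 337 were called whichever of the 5 libraries was left out. The groups did not overlap in any of the 811, so lack of overlap in a called gene named below is no further support for its change. Over all tested genes the groups did not overlap in 40.6%, with GFP-negative higher in 13.5% and lower in 27.1%. The median change of all tested genes was -0.13. Scaling the libraries to equal medians moved it by 0.13 to 0.00 and turned the share of higher calls from 46.4% to 61.8% (626 higher, 387 lower, or 5.88% and 3.63% of tested genes and 9.51% in all), so directions near 0 depend on the scaling.

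**Figure D1:**
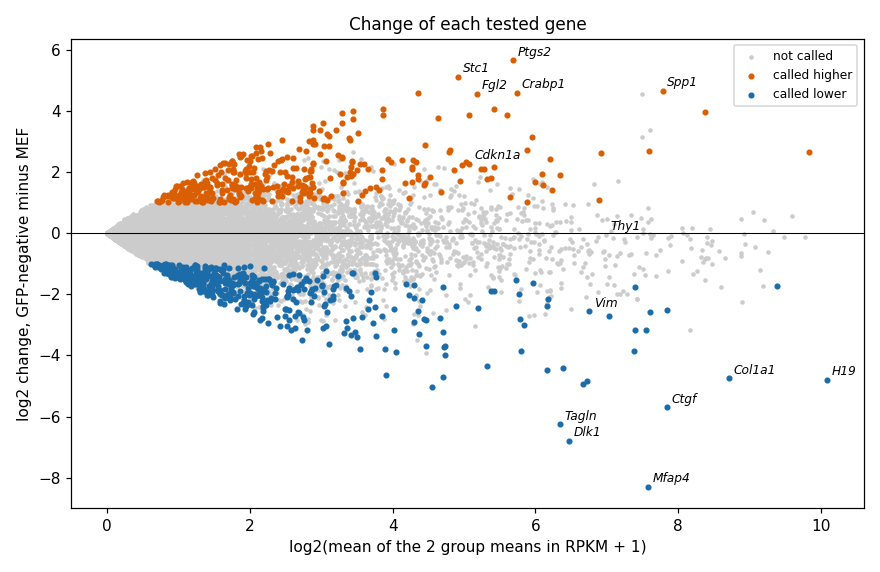
Change of each tested gene between GFP-negative cells and MEF (y axis, log2 of RPKM + 1, GFP-negative minus MEF) against its mean level in both groups (x axis, log scale). Coloured points are the 376 genes called higher and the 435 called lower, grey points the other tested genes, and labelled points are genes named in the text.

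**Figure D2:**
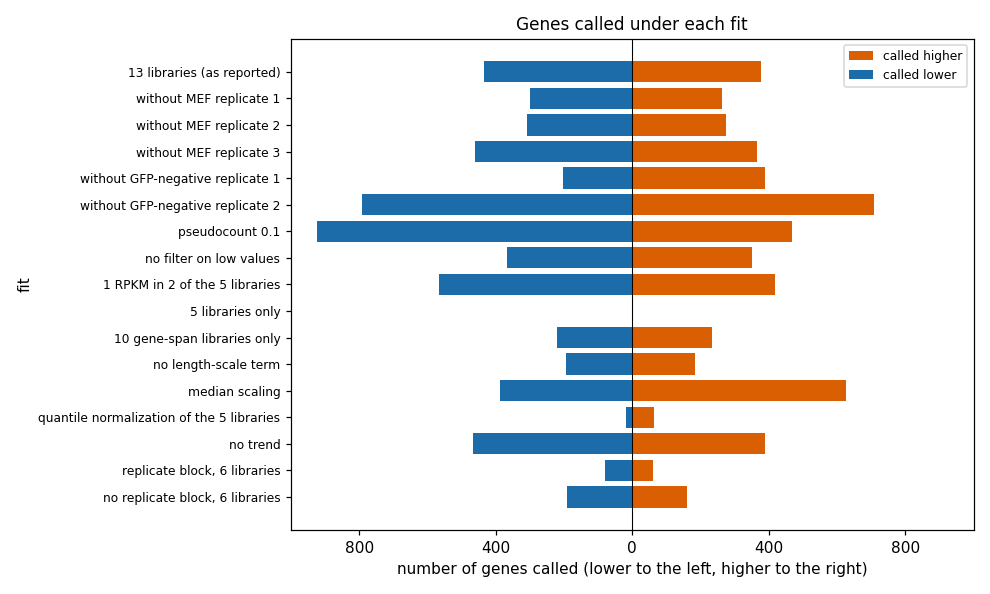
Number of genes called higher and lower (x axis) in each of the fits (y axis), with the fit of all 13 libraries first. The total goes from 5 with the 5 libraries alone to 1499 without GFP-negative replicate 2.

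Ptgs2, the inducible cyclooxygenase that makes prostaglandin precursors, had the largest rise among genes at 10 RPKM or more. MEF held 0.877, 1.84 and 0.461 RPKM and GFP-negative cells 110 and 89.1, a log2 change of 5.66 ± 0.35 SE, limma adjusted p = 4.59e-05 and a ratio of means of 93.9. Both treated libraries lay far above every MEF library, and the single library of GFP-positive clusters held 56.4 RPKM. Stc1, which encodes the secreted glycoprotein stanniocalcin 1, was at 0.470, 0.959 and 0.703 RPKM in MEF and 56.5 and 58.8 in GFP-negative cells (5.11 ± 0.21 SE, limma adjusted p = 6.79e-06). Its 2 treated libraries differed less from each other than either did from any MEF library. Fgl2, a fibrinogen-like protein that is secreted or held on the membrane, was at 2.12, 2.13 and 1.67 RPKM in MEF and 68.8 and 69.0 in GFP-negative cells (4.56 ± 0.19 SE, limma adjusted p = 6.79e-06). For these 3 genes the call held in each of the 16 alternative fits.

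Spp1, which encodes the secreted phosphoprotein osteopontin, was at 10.8, 13.5 and 26.9 RPKM in MEF and 455 and 389 in GFP-negative cells, a rise of 4.65 ± 0.66 SE, limma adjusted p = 0.004. Crabp1, a cytoplasmic protein that binds retinoic acid, held 1.90, 2.82 and 6.13 RPKM in MEF and 105 and 99.0 in GFP-negative cells (4.58 ± 0.37 SE, limma adjusted p = 0.000205). MEF replicate 3 was the highest of the MEF for both genes, and the groups still did not overlap. Both calls were lost only with the 5 libraries alone. Tnfsf9, the ligand of 4-1BB, a receptor found on T cells, held 0.249, 0.570 and 1.23 RPKM in MEF and 34.8 and 41.6 in GFP-negative cells (4.58 ± 0.25 SE, limma adjusted p = 2.59e-05). Inhbb, the beta B subunit of activins and inhibins, held 5.33, 5.81 and 1.56 RPKM in MEF and 72.7 and 85.5 in GFP-negative cells (4.06 ± 0.54 SE, limma adjusted p = 0.00298). Mt3, a metallothionein, held 0.0547, 1.06 and 0.809 RPKM in MEF and 18.5 and 34.8 in GFP-negative cells (4.06 ± 0.38 SE, limma adjusted p = 0.000452). GFP-negative replicate 2 was above replicate 1 for Mt3, and both stood above all MEF.

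The other genes among the 10 largest rises were Tubb4 and Tcp1. Tubb4, a beta-tubulin gene, was at 0.164, 0.182 and 0.498 RPKM in MEF and 20.3 and 18.4 in GFP-negative cells (4.0 ± 0.21 SE, limma adjusted p = 1.71e-05). Tcp1, a subunit of the cytosolic chaperonin that folds actin and tubulin, was at 51.6, 54.7 and 19.9 RPKM in MEF and 622 and 618 in GFP-negative cells (3.98 ± 0.93 SE, limma adjusted p = 0.0328, or 0.0641 to 0.12 without MEF replicate 1, 2 or 3 or GFP-negative replicate 1 or 2). It was the only one of the 10 whose call was lost on leaving out 1 library. ESC replicates 1 and 2, which hold exact zeros as the treated libraries do, had 595 and 526 RPKM of Tcp1, and ESC replicate 3, which does not, had 57.7. MEF replicates 1 and 2, at 51.6 and 54.7 RPKM, hold exact zeros as well. The part of the library set in the Tcp1 value was not tested.

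**Figure D3:**
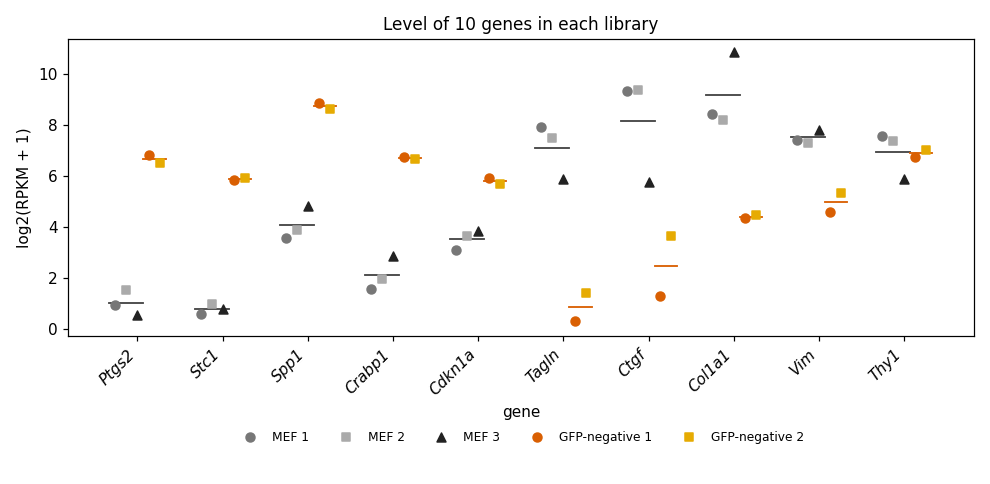
Level of 10 genes in each library (y axis, log2 of RPKM + 1). Points are the MEF and GFP-negative libraries and lines are the group means of the log values. Ptgs2, Stc1, Spp1, Crabp1 and Cdkn1a lie higher in both GFP-negative libraries than in any MEF library, and Tagln and Ctgf lie lower.

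Other genes of prostaglandin synthesis, transport and reception rose beside Ptgs2. Of 12 tested genes of the pathway 5 rose (41.7%, against 3.53% of all tested genes) and 1 fell, with a median change of 0.65 against -0.13 over all tested genes. With each library left out in turn, 4 to 5 were higher and 1 to 2 lower. Ptgs1, the constitutive cyclooxygenase, went from 0.309, 0.730 and 0.485 RPKM in MEF to 24.1 and 14.6 in GFP-negative cells (3.72 ± 0.23 SE, limma adjusted p = 4.59e-05). Ptges, the microsomal synthase of prostaglandin E2, went from 0.868, 0.269 and 0.749 RPKM in MEF to 13.8 and 14.8 in GFP-negative cells (3.25 ± 0.24 SE, limma adjusted p = 0.000128). Slco2a1, which carries prostaglandins into cells, held 0.821, 0.634 and 0.426 RPKM in MEF and 2.80 and 5.34 in GFP-negative cells (1.6 ± 0.22 SE, limma adjusted p = 0.00347), and the receptor gene Ptgfr had the smallest rise of the 5 (1.01 ± 0.15 SE, limma adjusted p = 0.0048, or a log2 change of 0.74 to 0.99 without MEF replicate 1 or 2 or GFP-negative replicate 1). In all 5 genes both treated libraries lay above every MEF library, as in every gene called higher and in 13.5% of all tested genes. Ptgds, the synthase of prostaglandin D2, was the gene that fell. It was at 2.53, 4.51 and 8.04 RPKM in MEF and at 0 in both GFP-negative libraries, where 3 reads would be 0.0800 and 0.0857 RPKM (log2 change -2.48 ± 0.32 SE, limma adjusted p = 0.00225, on RPKM + 1 and no bound on the fold). The receptor Ptger4 was at 1.08, 0.639 and 0.615 RPKM in MEF and 0.0433 and 0.0671 in GFP-negative cells and was not called (-0.74 ± 0.20 SE, limma adjusted p = 0.0573).

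Genes known to respond to cyclic AMP did not move as a block. Of 18 tested members of that list 5 rose and 3 fell (27.8% and 16.7%, against 3.53% and 4.09% of all tested genes). Their median change was 0.53. The fits that each lacked 1 library gave 5 to 6 higher and 1 to 3 lower, the 1 without GFP-negative replicate 1. Besides Ptgs2 and Stc1 the genes that rose were Star, Vgf and Areg. Star moves cholesterol into mitochondria for steroid synthesis and was at 0.0493, 0.453 and 0.137 RPKM in MEF and 12.5 and 12.7 in GFP-negative cells (3.50 ± 0.38 SE, limma adjusted p = 0.000983). Vgf, a precursor of secreted neuropeptides, was at 1.19, 0.737 and 0.136 RPKM in MEF and 15.5 and 16 in GFP-negative cells (3.36 ± 0.41 SE, limma adjusted p = 0.00167). Areg encodes amphiregulin, a ligand of the EGF receptor, and was at 1.93, 0.00639 and 0.001 RPKM in MEF and 21.3 and 12.4 in GFP-negative cells (3.59 ± 0.44 SE, limma adjusted p = 0.00177), where the 0.001 of MEF replicate 3 stands for an unmeasured gene. MEF replicate 1 was the highest MEF library for Areg and still lay below both treated libraries.

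The other tested members of the same list fell or were not called. Fosb, a subunit of the AP-1 factor, fell from 7.44, 8.0 and 11.5 RPKM in MEF to 1.22 and 2.29 in GFP-negative cells (-1.86 ± 0.23 SE, limma adjusted p = 0.00181). Sik1, a kinase that restrains the CREB coactivators, was at 2.90, 2.19 and 3.47 RPKM in MEF and 0.196 and 0.537 in GFP-negative cells (-1.49 ± 0.36 SE, limma adjusted p = 0.0378, or 0.0641 to 0.153 without MEF replicate 1, 2 or 3 or GFP-negative replicate 1). Penk, the precursor of enkephalins, held 2.93, 6.02 and 12.9 RPKM in MEF and 0.854 and 0.915 in GFP-negative cells (-1.95 ± 0.43 SE, limma adjusted p = 0.0268, or 0.0554 to 0.103 without MEF replicate 2 or GFP-negative replicate 1 or 2). Nr4a1, an orphan nuclear receptor, held 6.80, 6.43 and 31.0 RPKM in MEF and 0.648 and 11.2 in GFP-negative cells, so the groups overlapped (-1.45 ± 0.86 SE, limma adjusted p = 0.331). Fos was not called either (-1.07 ± 0.44 SE, limma adjusted p = 0.165), although both treated libraries, at 27.0 and 20.4 RPKM, lay below the MEF at 41.6, 37.0 and 82.8. The genes of adenylyl cyclases, protein kinase A and phosphodiesterases gave 0 higher and 1 lower of 15 (6.67%, against 4.09% of all tested genes). The 1 was Akap12, which anchors protein kinase A (-1.80 ± 0.44 SE, limma adjusted p = 0.037, or 0.0703 to 0.117 without MEF replicate 1 or 2 or GFP-negative replicate 1 or 2).

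**Figure D4:**
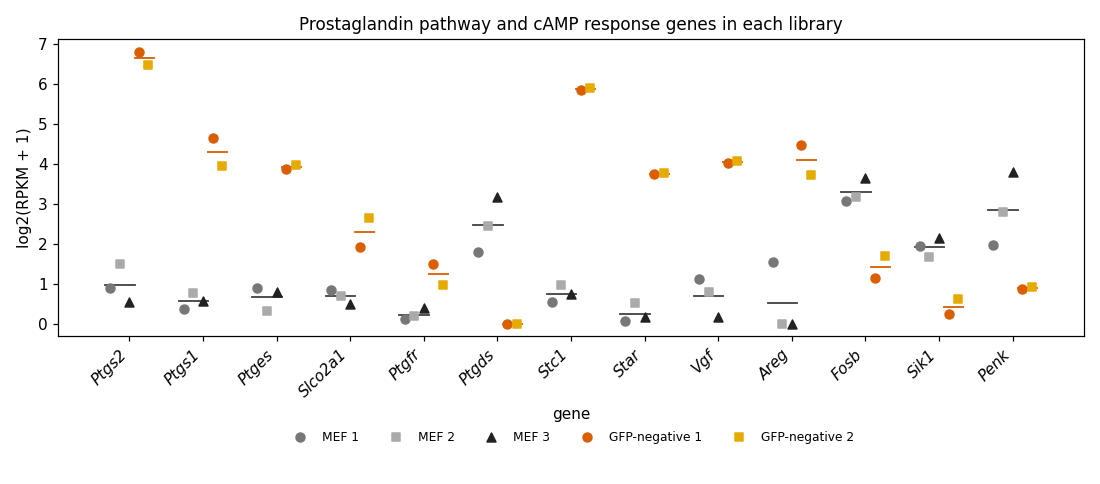
Level of 13 genes of the cyclic AMP and prostaglandin lists in each library (y axis, log2 of RPKM + 1). Points are the MEF and GFP-negative libraries and lines are the group means of the log values. Ptgs2, Ptgs1, Ptges, Slco2a1, Ptgfr, Stc1, Star, Vgf and Areg lie higher in both GFP-negative libraries than in any MEF library, and Ptgds, Fosb, Sik1 and Penk lie lower.

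Promoters of 3 genes of the cyclic AMP list are shown because they hold the same kind of site and moved in different ways. The sequences are from RefSeq on GRCm38.p6, end at the base before the annotated start and run 5′ to 3′ on the strand of the gene. Capitals mark the cyclic AMP response element TGACGTCA and its short site TGACG, or CGTCA on the other strand. Each full element holds the short site on both strands, and those overlapping matches are drawn as 1 site.
Areg (chr5:91139469-91139598, plus strand): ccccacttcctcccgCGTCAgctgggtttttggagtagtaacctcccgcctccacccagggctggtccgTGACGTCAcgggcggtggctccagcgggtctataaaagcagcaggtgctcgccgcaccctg
Fosb (chr7:19310046-19310175, minus strand): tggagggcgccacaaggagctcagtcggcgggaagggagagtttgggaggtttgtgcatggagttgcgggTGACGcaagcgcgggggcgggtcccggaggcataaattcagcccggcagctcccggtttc
Nr4a1 (chr15:101266596-101266845, plus strand): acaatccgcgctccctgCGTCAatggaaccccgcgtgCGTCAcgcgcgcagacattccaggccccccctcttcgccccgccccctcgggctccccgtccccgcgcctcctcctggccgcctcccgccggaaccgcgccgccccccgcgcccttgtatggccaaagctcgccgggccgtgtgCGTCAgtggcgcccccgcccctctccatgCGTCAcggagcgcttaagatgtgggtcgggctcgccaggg
The Areg promoter held a full element whose first base lay 61 bases before the start, and Areg rose. Fosb, which fell, held a short site 60 bases before the start. Nr4a1, which was not called, held 4 short sites between 233 and 40 bases before the start. The list has 22 measured genes, of which 14 had a promoter window (250 bases before to 50 after the start). Among the list genes that rose, Stc1, Star and Vgf had no window, and Ptgs2 held 1 short site and no full element. Of the 14, 2 held the full element (Areg and Dusp1) and 12 held a short site. Counted in the same way, by gene over all its windows, 3.70% of the 8351 tested genes with a window held the full element and 36.6% a short site. Per window, over all 32851, the shares were 1.79% and 20.8%. A short site was held by 32.5% of genes called higher, 32.5% of those called lower and 36.9% of those not called. For the full element, 7 of 286 genes called higher (2.45%) held the full element in a window, against 15 of 326 called lower (4.60%) and 287 of 7739 not called (3.71%). A match describes these letters only and is no measure of binding.

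Cdkn1a, which encodes p21, was at 7.58, 11.3 and 13.4 RPKM in MEF and 59.5 and 49.9 in GFP-negative cells, a log2 change of 2.27 ± 0.35 SE, limma adjusted p = 0.00571. Both treated libraries lay above the highest MEF library. Of 24 tested genes of cell cycle arrest and p53 response 8 rose and 1 fell, with a median change of 0.66. These are 33.3% and 4.17%, against 3.53% and 4.09% of all tested genes. Fits without 1 library gave 5 to 9 higher and 0 to 2 lower, with 5 higher without MEF replicate 1, without MEF replicate 2 and without GFP-negative replicate 1. Ccng1, a p53 target that encodes cyclin G1, held 15.6, 16.4 and 11.0 RPKM in MEF and 129 and 73.8 in GFP-negative cells (2.70 ± 0.42 SE, limma adjusted p = 0.00594). Pmaip1, which encodes the pro-apoptotic protein Noxa, held 0.146, 0.746 and 0.643 RPKM in MEF and 7.75 and 15.5 in GFP-negative cells (3.01 ± 0.34 SE, limma adjusted p = 0.00107). Cdkn2a, the locus of p16 and p19ARF, whose products this table does not separate, held 0.0334, 0.0419 and 0.124 RPKM in MEF and 1.99 and 7.55 in GFP-negative cells (2.25 ± 0.41 SE, limma adjusted p = 0.0124). Tnfrsf10b, a death receptor (1.6 ± 0.27 SE, limma adjusted p = 0.00924), and Zmat3 (1.45 ± 0.31 SE, limma adjusted p = 0.0237, or 0.0545 to 0.0849 without MEF replicate 1 or 2 or GFP-negative replicate 1) also rose. Mdm2, which degrades p53, and Ei24 rose as well (1.53 ± 0.35 SE, limma adjusted p = 0.0309, or 0.0525 to 0.134 without MEF replicate 1, 2 or 3 or GFP-negative replicate 1 for Mdm2, and 1.33 ± 0.31 SE, limma adjusted p = 0.0317, or 0.0556 to 0.13 without MEF replicate 1, 2 or 3 or GFP-negative replicate 1 for Ei24). Trp53 itself was not called (2.83, 4.73 and 6.27 RPKM in MEF, 1.61 and 1.85 in GFP-negative cells, -0.99 ± 0.33 SE, limma adjusted p = 0.101). The member that fell was Cdkn1c, the imprinted gene of the inhibitor p57, at 46.8, 47.8 and 523 RPKM in MEF and 3.24 and 2.22 in GFP-negative cells (-4.85 ± 1.0 SE, limma adjusted p = 0.0201, or 0.0539 to 0.0739 without GFP-negative replicate 1 or 2).

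Part of the genes of replication and mitosis fell, in numbers that depended on the libraries used. Of 40 tested genes 0 rose and 8 fell (20%, against 4.09% of all tested genes), with a median change of -0.79. The number that fell was 3 without MEF replicate 1, without MEF replicate 2 or without GFP-negative replicate 1, 10 without MEF replicate 3 and 13 without GFP-negative replicate 2. With either GFP-negative library left out, 1 was higher. Replicate 1 was the lower of the pair in 28 of the 40. Mcm4, a subunit of the replicative helicase, was at 10.6, 11.9 and 3.83 RPKM in MEF and 0.555 and 0.624 in GFP-negative cells (-2.50 ± 0.41 SE, limma adjusted p = 0.00778). Birc5, which encodes the mitotic protein survivin, held 5.66, 4.21 and 3.24 RPKM in MEF and 0.0139 and 0.387 in GFP-negative cells (-2.15 ± 0.33 SE, limma adjusted p = 0.00581). Mki67, the proliferation marker Ki-67, held 11.4, 9.57 and 4.85 RPKM in MEF and 0.621 and 3.41 in GFP-negative cells (-1.78 ± 0.47 SE, limma adjusted p = 0.0491, or 0.12 to 0.213 without MEF replicate 1 or 2 or GFP-negative replicate 1), just inside the threshold. The helicase subunits Mcm7 (-1.69 ± 0.30 SE, limma adjusted p = 0.0115, or 0.0542 without GFP-negative replicate 1), Mcm2 (-1.76 ± 0.42 SE, limma adjusted p = 0.0359, or 0.0607 to 0.147 without MEF replicate 1, 2 or 3 or GFP-negative replicate 1) and Mcm6 (-1.32 ± 0.29 SE, limma adjusted p = 0.0246, or 0.067 to 0.0782 without MEF replicate 1 or 2 or GFP-negative replicate 1) fell too. Kif20a, a mitotic kinesin (-1.58 ± 0.40 SE, limma adjusted p = 0.044, or 0.0799 to 0.196 without MEF replicate 1, 2 or 3 or GFP-negative replicate 1), and Foxm1, a transcription factor of mitotic genes (-1.54 ± 0.39 SE, limma adjusted p = 0.0439, or 0.11 to 0.199 without MEF replicate 1 or 2 or GFP-negative replicate 1), were the other called members. Cdk1, the mitotic kinase, overlapped between groups, at 3.26, 3.43 and 2.32 RPKM in MEF and 3.27 and 2.21 in GFP-negative cells.

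Of 8 tested genes that respond to histone deacetylase inhibitors, a short list, 1 rose and 1 fell with a median of 0.66. Each is 12.5% of the list, against 3.53% and 4.09% of all tested genes. Without MEF replicate 3 the counts were 3 and 0, and without MEF replicate 1, MEF replicate 2 or GFP-negative replicate 1 they were 1 and 0. The gene that rose was Cdkn1a. The gene that fell was H1f0, a linker histone commonly raised by such inhibitors, at 68.8, 80.4 and 143 RPKM in MEF and 3.70 and 27.4 in GFP-negative cells (-3.02 ± 0.71 SE, limma adjusted p = 0.0326, or 0.0614 to 0.116 without MEF replicate 1, 2 or 3 or GFP-negative replicate 1). The metallothionein gene Mt1 had higher values in both treated libraries, 310 and 380 against 17.5, 21.9 and 88.9 RPKM, but was not called (3.36 ± 0.94 SE, limma adjusted p = 0.0595). Of 26 tested genes of histone deacetylases, demethylases and polycomb proteins 0 rose and 1 fell (3.85%, near the 4.09% of all tested genes). It was the polycomb gene Cbx8 (-1.02 ± 0.19 SE, limma adjusted p = 0.0142, or a log2 change of -0.97 to -0.93 without MEF replicate 1 or 3 or GFP-negative replicate 1).

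Part of the contractile genes fell in GFP-negative cells. Of 20 tested members 0 rose and 6 fell (against 4.09% of all tested genes), the median change was -1.34, and the 2 groups did not overlap, with GFP-negative lower, in 13 of the 20, against 27.1% of all tested genes. The number that fell was 4 without MEF replicate 1, without MEF replicate 2 or without GFP-negative replicate 1, 9 without MEF replicate 3 and 11 without GFP-negative replicate 2. In bulk RNA, fewer cells of a type and less RNA per cell cannot be told apart. Tagln, which encodes the actin-binding protein transgelin of smooth muscle and activated fibroblasts, was at 241, 178 and 57.3 RPKM in MEF and 0.225 and 1.63 in GFP-negative cells (-6.25 ± 0.63 SE, limma adjusted p = 0.00064). MEF replicate 3 was the lowest of the MEF and still lay far above both treated libraries. Acta2, smooth muscle actin, was at 171, 171 and 65.2 RPKM in MEF and 1.97 and 9.68 in GFP-negative cells (-4.47 ± 0.62 SE, limma adjusted p = 0.0034). GFP-negative replicate 2 held more than replicate 1 of both genes, and below every MEF library. The other members that fell were Myl9 (-2.81 ± 0.34 SE, limma adjusted p = 0.00158), a myosin light chain, the actin crosslinkers Actn1 (-1.82 ± 0.37 SE, limma adjusted p = 0.0201, or 0.0617 to 0.0956 without MEF replicate 1 or 2 or GFP-negative replicate 1) and Flna (-1.55 ± 0.35 SE, limma adjusted p = 0.0287, or 0.0826 to 0.127 without MEF replicate 1 or 2 or GFP-negative replicate 1), and Actg2 (-1.48 ± 0.20 SE, limma adjusted p = 0.0033), whose reads a close paralog could share.

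Matricellular and TGF-beta response genes also fell in part. Of 24 tested genes 1 rose and 8 fell (4.17% and 33.3%, against 3.53% and 4.09% of all tested genes). Their median was -1.43. Each fit without 1 library kept 1 higher, and they gave 6 to 11 lower. Ctgf, a secreted matricellular protein induced by TGF-beta and by YAP, was at 641, 659 and 52.5 RPKM in MEF and 1.42 and 11.2 in GFP-negative cells (-5.70 ± 1.09 SE, limma adjusted p = 0.0149, or 0.0901 without GFP-negative replicate 1). MEF replicate 3 was far below the other MEF libraries and above both treated libraries. Cyr61, its close relative, was at 410, 410 and 181 RPKM in MEF and 18.4 and 60.9 in GFP-negative cells (-3.18 ± 0.77 SE, limma adjusted p = 0.0372, or 0.0982 to 0.187 without MEF replicate 1 or 2 or GFP-negative replicate 1). Lox, the enzyme that crosslinks collagen and elastin, was at 382, 410 and 142 RPKM in MEF and 27.0 and 12.5 in GFP-negative cells (-3.86 ± 0.53 SE, limma adjusted p = 0.00331). The matrix genes Postn (-3.23 ± 0.30 SE, limma adjusted p = 0.000452), Bgn (-3.15 ± 0.25 SE, limma adjusted p = 0.000205) and Ltbp2 (-1.43 ± 0.15 SE, limma adjusted p = 0.000916) and the genes Tgfb1i1 (-2.85 ± 0.28 SE, limma adjusted p = 0.000588) and Pmepa1 (-1.38 ± 0.20 SE, limma adjusted p = 0.00414) fell too. Thbs2, thrombospondin 2, was the member that rose, from 34.2, 35.8 and 31.9 RPKM in MEF to 99.3 and 105 in GFP-negative cells (1.56 ± 0.23 SE, limma adjusted p = 0.00504).

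Components of the TGF-beta and BMP pathways showed no common direction. Of 28 tested genes 4 rose and 3 fell (14.3% and 10.7%, against 3.53% and 4.09% of all tested genes). The median of -0.15 became 0.05 under median scaling. The list gave 2 to 4 higher and 2 to 4 lower when 1 library was left out. Among receptors Tgfbr2 rose from 1.85, 1.61 and 2.72 RPKM in MEF to 6.29 and 6.81 in GFP-negative cells (1.32 ± 0.19 SE, limma adjusted p = 0.00414) and the coreceptor Tgfbr3 rose by less (1.07 ± 0.14 SE, limma adjusted p = 0.00235, or a log2 change of 0.94 to 0.96 without MEF replicate 1 or GFP-negative replicate 1). Among ligands Bmp2 rose (1.63 ± 0.37 SE, limma adjusted p = 0.0309, or 0.0593 to 0.0878 without MEF replicate 1 or 3 or GFP-negative replicate 1) and Tgfb3 fell (-2.07 ± 0.39 SE, limma adjusted p = 0.014). Secreted BMP antagonists moved apart. Grem1 held 11.7, 8.43 and 0.824 RPKM in MEF and 83.7 and 91.7 in GFP-negative cells (3.88 ± 0.70 SE, limma adjusted p = 0.0115, or 0.0513 without GFP-negative replicate 1), whereas Nog held 5.09, 5.51 and 4.54 RPKM in MEF and 0.376 and 0.554 in GFP-negative cells (-2.05 ± 0.16 SE, limma adjusted p = 0.000189). The pseudoreceptor Bambi fell (-1.10 ± 0.26 SE, limma adjusted p = 0.0346, or 0.0602 to 0.137 without MEF replicate 2 or GFP-negative replicate 1 or 2, or a log2 change of -0.82 without MEF replicate 3). Of 14 tested targets of Wnt and beta-catenin 1 rose, the Wnt inhibitor Notum (1.99 ± 0.45 SE, limma adjusted p = 0.0279, or 0.0741 to 0.079 without MEF replicate 1 or 2 or GFP-negative replicate 1), and 2 fell, Nkd2, which restrains Wnt signalling (-1.47 ± 0.31 SE, limma adjusted p = 0.023, or 0.055 to 0.0905 without MEF replicate 2 or GFP-negative replicate 1 or 2), and the Notch ligand Jag1 (-1.46 ± 0.17 SE, limma adjusted p = 0.00128). The shares of that Wnt list were 7.14% higher and 14.3% lower, against 3.53% and 4.09% of all tested genes. The median of that list, -0.07, became 0.03 under median scaling, and with 1 library left out 0 to 2 were higher and 1 to 2 lower. Axin2, the most general target of the pathway, was not called (0.382, 0.772 and 0.400 RPKM in MEF, 0.332 and 0.280 in GFP-negative cells, -0.21 ± 0.16 SE, limma adjusted p = 0.451).

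**Figure D5:**
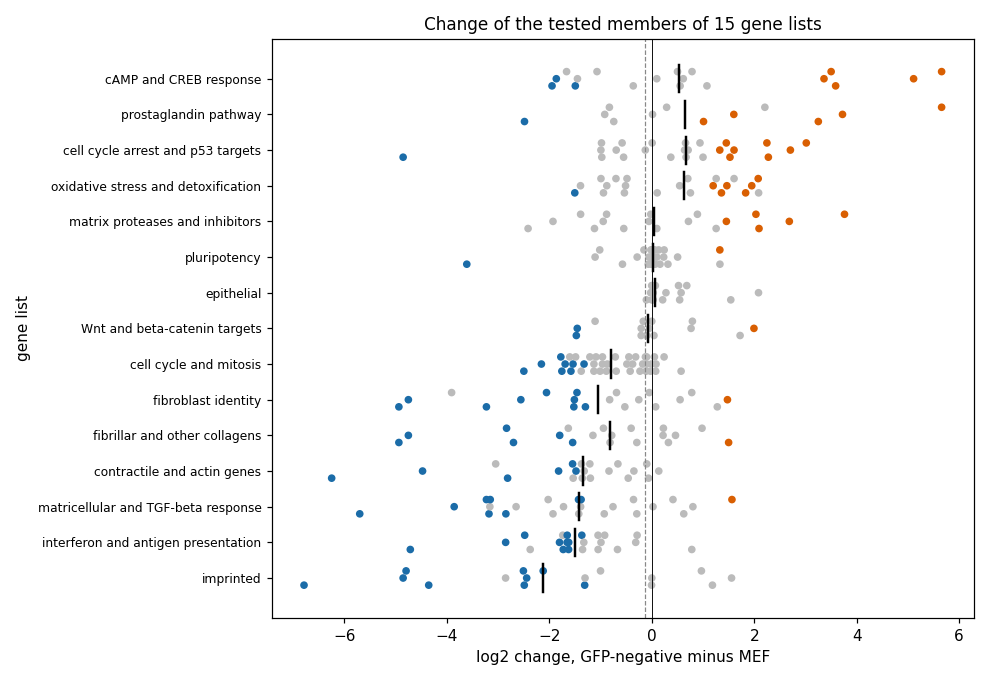
Log2 change (x axis, log2 of RPKM + 1, GFP-negative minus MEF) of the tested members of 15 gene lists (y axis). Each point is a gene, black bars are list medians and the dashed grey line is the median of all tested genes, -0.13. The contractile, matricellular, interferon and imprinted lists have medians of -1.34, -1.43, -1.49 and -2.12.

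Part of the collagen genes and of the fibroblast markers fell, and others were not called. Of 19 tested genes of collagens and their modifying enzymes 1 rose and 6 fell (median -0.82). These are 5.26% and 31.6%, against 3.53% and 4.09% of all tested genes. Without GFP-negative replicate 1 the counts were 2 and 3, and with any of the other libraries left out 6 to 7 fell. Col1a1, a chain of type I collagen, was at 338, 292 and 1824 RPKM in MEF and 19 and 21.0 in GFP-negative cells (-4.75 ± 0.77 SE, limma adjusted p = 0.00736). Col1a2, its partner chain, was at 95.4, 86.9 and 409 RPKM in MEF and 2.48 and 6.04 in GFP-negative cells (-4.94 ± 0.71 SE, limma adjusted p = 0.00414). MEF replicate 3 was the highest of the MEF in both, and both treated libraries lay below all MEF. Col6a2 (-2.84 ± 0.44 SE, limma adjusted p = 0.00594), Col5a1 (-1.80 ± 0.40 SE, limma adjusted p = 0.0269, or 0.0518 to 0.0767 without GFP-negative replicate 1 or 2), the prolyl hydroxylase subunit P4ha2 (-1.54 ± 0.32 SE, limma adjusted p = 0.0194, or 0.0887 without GFP-negative replicate 1) and the collagen chaperone Serpinh1 (-2.70 ± 0.53 SE, limma adjusted p = 0.0174, or 0.0834 without GFP-negative replicate 1) also fell. Col7a1, the collagen of anchoring fibrils, rose (1.5 ± 0.31 SE, limma adjusted p = 0.0213, or 0.0611 to 0.0644 without MEF replicate 1 or 2, or a log2 change of 0.84 without GFP-negative replicate 2). Col3a1, a chain of type III collagen, was at 59.7, 62.8 and 269 RPKM in MEF and 34.7 and 29.1 in GFP-negative cells and was not called (-1.63 ± 0.60 SE, limma adjusted p = 0.129).

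Of 20 tested fibroblast markers 1 rose and 9 fell (5% and 45%, against 3.53% and 4.09% of all tested genes, median -1.06). Leaving out 1 library in turn gave 6 to 11 lower, the 6 without GFP-negative replicate 1. This list shares Col1a1, Col1a2 and Postn with the lists above. Vim, the intermediate filament of mesenchymal cells, was at 169, 156 and 223 RPKM in MEF and 22.8 and 39.0 in GFP-negative cells (-2.56 ± 0.51 SE, limma adjusted p = 0.0175, or 0.0935 without GFP-negative replicate 1). Thy1, the surface marker most used for MEF, overlapped between the groups, at 186, 163 and 56.8 RPKM in MEF and 106 and 127 in GFP-negative cells (-0.05 ± 0.49 SE, limma adjusted p = 0.975). The overlap came from MEF replicate 3, and both treated libraries lay below MEF replicates 1 and 2. Without MEF replicate 3 the change of Thy1 was -0.58 (limma adjusted p = 0.292), still not called. Without MEF replicate 1 or 2 it was 0.26 and 0.17. Pdgfra, the receptor that marks mesenchymal fibroblasts, was at 6.89, 7.21 and 6.17 RPKM in MEF and 11.0 and 13.7 in GFP-negative cells (0.78 ± 0.21 SE, limma adjusted p = 0.0495), above all MEF in both treated libraries but under the size of change for a call. The receptor gene Pdgfrb (-1.46 ± 0.30 SE, limma adjusted p = 0.0192, or 0.0534 without MEF replicate 1, or a log2 change of -0.91 without GFP-negative replicate 1) and the elastic fibre genes Fbn1 (-1.52 ± 0.15 SE, limma adjusted p = 0.000551), Mfap5 (-1.51 ± 0.26 SE, limma adjusted p = 0.00914), Fbln5 (-1.30 ± 0.25 SE, limma adjusted p = 0.0161, or a log2 change of -0.83 without GFP-negative replicate 2) and Loxl1 (-2.06 ± 0.39 SE, limma adjusted p = 0.0138, or 0.0775 without GFP-negative replicate 1) fell. Twist2, a mesenchymal transcription factor, was the marker that rose (1.48 ± 0.14 SE, limma adjusted p = 0.000472).

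None of the 17 tested epithelial genes was called, and without GFP-negative replicate 2 1 was higher. The summed level of all 21 measured epithelial genes was 1.40, 1.71 and 5.15 RPKM in MEF and 35.2 and 12.2 in GFP-negative cells. Of the 35.2 RPKM Cldn4, a tight junction claudin named here after its values were seen, gave 29.6, and it was at 0 in GFP-negative replicate 2. Cdh1, E-cadherin, was at 0, 0.00168 and 0.0435 RPKM in MEF and 0.116 and 0.353 in GFP-negative cells (0.28 ± 0.20 SE, limma adjusted p = 0.426), against 5.56 to 6.22 RPKM in ESC replicates 1 to 3. A gene under 1 RPKM in both treated libraries, as Cdh1 was, could not be called higher on RPKM + 1. With a pseudocount of 0.1 Cdh1 was called higher (1.46, limma adjusted p = 0.049). After quantile normalization of the 5 libraries its change was 0.43 (limma adjusted p = 0.0415).

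Of 18 tested matrix proteases and their inhibitors 5 rose (27.8%, against 3.53% of all tested genes) and 0 fell, with a median of 0.04. Without GFP-negative replicate 1 the number that rose was 3, and without MEF replicate 3 2 genes fell. Mmp2, a gelatinase, went from 9.27, 11.9 and 22.6 RPKM in MEF to 60.2 and 62.4 in GFP-negative cells (2.09 ± 0.40 SE, limma adjusted p = 0.0158, or 0.0577 without GFP-negative replicate 1). Mmp3, stromelysin 1, went from 3.34, 3.70 and 0.195 RPKM in MEF to 69.5 and 20.9 in GFP-negative cells (3.76 ± 0.65 SE, limma adjusted p = 0.00955, or 0.054 without GFP-negative replicate 1), with replicate 1 well above replicate 2. Ctsl, the lysosomal and secreted protease cathepsin L, went from 35.9, 44.9 and 76.6 RPKM in MEF to 383 and 277 in GFP-negative cells (2.68 ± 0.39 SE, limma adjusted p = 0.00414). Plat, tissue plasminogen activator (2.03 ± 0.27 SE, limma adjusted p = 0.00304), and its inhibitor Serpine2 (1.46 ± 0.24 SE, limma adjusted p = 0.00736) also rose.

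Mfap4 and Dlk1 had the largest falls among genes at 10 RPKM or more. Mfap4, an elastic fibre glycoprotein, was at 263, 253 and 623 RPKM in MEF and 0.0781 and 0.140 in GFP-negative cells (-8.29 ± 0.39 SE, limma adjusted p = 1.06e-05), which rest on 3 and 5 estimated reads in the treated libraries. Dlk1, an imprinted membrane protein of progenitor cells, was at 65.6, 51.2 and 409 RPKM in MEF and 0.00861 and 0.0277 in GFP-negative cells (-6.79 ± 0.74 SE, limma adjusted p = 0.000976), with 1 and 3 estimated reads. Gadd45g, a stress response gene named here for its place among the 5 calls, was at 26.7, 26.6 and 29.8 RPKM in MEF and 0.101 and 0.216 in GFP-negative cells (-4.63 ± 0.41 SE, limma adjusted p = 0.000339). For these 3 genes the treated libraries were close to 0 and every MEF library was at 26.6 RPKM or more.

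Of 17 tested imprinted genes 0 rose and 9 fell (52.9%, against 4.09% of all tested genes). Their median was -2.12, against -0.13 over all genes. Leaving out 1 library in turn gave 5 to 8 lower, the 5 without GFP-negative replicate 1, and without MEF replicate 3 2 genes were higher. H19, the maternally expressed long RNA, was at 1349, 1343 and 3649 RPKM in MEF and 89.9 and 49.2 in GFP-negative cells (-4.80 ± 0.77 SE, limma adjusted p = 0.00712). Ndn (-4.35 ± 0.60 SE, limma adjusted p = 0.00347), Peg3 (-2.49 ± 0.46 SE, limma adjusted p = 0.0128), Plagl1 (-2.44 ± 0.47 SE, limma adjusted p = 0.0148, or 0.0721 without GFP-negative replicate 1), Grb10 (-2.12 ± 0.34 SE, limma adjusted p = 0.00714) and Zim1 (-1.31 ± 0.27 SE, limma adjusted p = 0.0191, or 0.0812 without GFP-negative replicate 1, or a log2 change of -0.99 without MEF replicate 3) fell as well. Igf2, the fetal growth factor beside H19, was at 286, 291 and 607 RPKM in MEF and 68.7 and 60.1 in GFP-negative cells (-2.51 ± 0.58 SE, limma adjusted p = 0.0314, or 0.058 to 0.098 without MEF replicate 1, 2 or 3 or GFP-negative replicate 1 or 2), and Dlk1 and Cdkn1c above are the other 2 of the 9. MEF replicate 3 was the highest library for H19, Dlk1, Cdkn1c and Igf2, and MEF replicates 1 and 2 still lay above both treated libraries.

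Of 22 tested genes of interferon response and antigen presentation 0 rose and 10 fell (45.5%, against 4.09% of all tested genes). Their median was -1.49. Leaving out 1 library in turn gave 0 higher and 9 to 14 lower. Replicate 1 was the lower of the treated pair in 19 of the 22. Isg15, a ubiquitin-like protein induced by interferon, was at 65.3, 59.3 and 23.6 RPKM in MEF and 0.13 and 1.74 in GFP-negative cells (-4.71 ± 0.50 SE, limma adjusted p = 0.000786). Irf7, a transcription factor of the interferon response, was at 11.8, 7.82 and 8.15 RPKM in MEF and 0.0478 and 0.872 in GFP-negative cells (-2.85 ± 0.26 SE, limma adjusted p = 0.000417). Ifit1 (-2.48 ± 0.38 SE, limma adjusted p = 0.00588), Oas1a (-1.73 ± 0.22 SE, limma adjusted p = 0.00215), Ifi35 (-1.65 ± 0.19 SE, limma adjusted p = 0.00134) and the signalling factors Stat2 (-1.65 ± 0.25 SE, limma adjusted p = 0.00571), Irf9 (-1.80 ± 0.26 SE, limma adjusted p = 0.00451) and Irf1 (-1.37 ± 0.36 SE, limma adjusted p = 0.0494, or 0.0579 to 0.209 without MEF replicate 1, 2 or 3 or GFP-negative replicate 1) fell too. So did Psmb8, a subunit of the immunoproteasome (-1.62 ± 0.32 SE, limma adjusted p = 0.0165, or 0.0623 without GFP-negative replicate 1). B2m, the light chain of MHC class I, was at 104, 102 and 75.0 RPKM in MEF and 27.8 and 31.2 in GFP-negative cells (-1.62 ± 0.29 SE, limma adjusted p = 0.0108).

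Among chemokines and interleukins 1 of 13 rose and 2 fell (7.69% and 15.4%, against 3.53% and 4.09% of all tested genes). With 1 library left out 1 to 2 were higher and 1 to 4 lower. Il33, an alarmin cytokine, went from 0.0237, 0.0807 and 0.572 RPKM in MEF to 17.7 and 7.22 in GFP-negative cells (3.37 ± 0.32 SE, limma adjusted p = 0.000516), and Cxcl12, a chemokine of stromal cells, from 20.4, 22.3 and 13.6 RPKM in MEF to 0.0563 and 2.94 in GFP-negative cells (-3.25 ± 0.49 SE, limma adjusted p = 0.00526). Ccl9 was at 1.71, 1.87 and 6.96 RPKM in MEF and at 0 in both treated libraries (-1.98 ± 0.39 SE, limma adjusted p = 0.0173, or 0.075 without GFP-negative replicate 1).

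Oxidative stress and detoxification genes gave 6 higher and 1 lower of 22 (27.3% and 4.55%, median 0.62), against 3.53% and 4.09% of all tested genes. Leaving out 1 library in turn gave 3 to 6 higher and 0 to 1 lower. Sod2, the mitochondrial superoxide dismutase, went from 4.94, 5.79 and 3.11 RPKM in MEF to 25.3 and 19.4 in GFP-negative cells (2.08 ± 0.33 SE, limma adjusted p = 0.00687), and Prdx6, a peroxiredoxin, from 12.1, 11.3 and 5.10 RPKM in MEF to 34.9 and 33.8 in GFP-negative cells (1.83 ± 0.36 SE, limma adjusted p = 0.0175, or 0.065 without GFP-negative replicate 1). Txnrd1, thioredoxin reductase (1.47 ± 0.30 SE, limma adjusted p = 0.0204, or 0.0633 without GFP-negative replicate 1), Gclc, which starts glutathione synthesis (1.2 ± 0.21 SE, limma adjusted p = 0.00983), Gsta4 (1.95 ± 0.43 SE, limma adjusted p = 0.025, or 0.0757 to 0.12 without MEF replicate 1 or 2 or GFP-negative replicate 1) and Aldh3a1 (1.36 ± 0.30 SE, limma adjusted p = 0.0269, or 0.0531 to 0.0722 without MEF replicate 1, 2 or 3, or a log2 change of 0.70 without GFP-negative replicate 2) rose, and Gstm2 fell (-1.5 ± 0.31 SE, limma adjusted p = 0.0193, or 0.0518 to 0.0558 without MEF replicate 1 or GFP-negative replicate 1). In the retinoid list 2 of 9 rose (22.2%), Crabp1 and Cyp26b1, and 0 fell. Cyp26b1, which breaks down retinoic acid, was at 3.24, 3.03 and 2.45 RPKM in MEF and 11.8 and 13.2 in GFP-negative cells (1.79 ± 0.17 SE, limma adjusted p = 0.000516).

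The label of the treated cells, negative for GFP driven from Oct4, was set beside pluripotency genes. Of these 3.23% rose and 3.23% fell, near the 3.53% and 4.09% of all tested genes. Of 31 tested genes 1 rose and 1 fell, with a median of 0.01, and with 1 library left out 0 to 2 were higher and 1 lower. Pou5f1, which encodes Oct4, was at 0, 0 and 0.154 RPKM in MEF and 0.191 and 0.429 in GFP-negative cells (0.31 ± 0.31 SE, limma adjusted p = 0.568), or 10 and 21 estimated reads, against 86.1, 95.6 and 152 RPKM in ESC replicates 1, 2 and 3. Nanog (0.126 and 0.122 RPKM in GFP-negative cells), Sox2 (0.0368 and 0.631) and Sall4 (0.00921 and 0.0296) were not called, with limma adjusted p of 0.822, 0.401 and 0.969. Pou5f1, Nanog, Sox2 and Sall4 were under 1 RPKM in both treated libraries and could not be called higher on RPKM + 1. With a pseudocount of 0.1 the change of Pou5f1 was 1.52 (limma adjusted p = 0.081). After quantile normalization of the 5 libraries it was 0.51 (limma adjusted p = 0.0415). The member that fell was Klf2, from 9.93, 12.4 and 22.6 RPKM in MEF to 0.0344 and 0.480 in GFP-negative cells (-3.61 ± 0.39 SE, limma adjusted p = 0.000926), and Tbx3, also a limb and heart factor, rose (1.33 ± 0.26 SE, limma adjusted p = 0.0165, or 0.055 without MEF replicate 1). Gata4 and Gata6, factors of extraembryonic endoderm, were at 0.00124 and 0.0426 and 0.243 and 1.02 RPKM in GFP-negative cells and were not called. Gata4 could not be called higher at that level either. Foxa2, an endoderm factor, rose from 0, 0.0135 and 0.0748 RPKM in MEF to 2.08 and 5.25 in GFP-negative cells (2.09 ± 0.25 SE, limma adjusted p = 0.00139). Foxa2 was the only called gene of the 9 tested on the extraembryonic endoderm list, whose median change was 0.02. That is 11.1% higher and 0% lower, against 3.53% and 4.09% of all tested genes. The summed level of the 13 measured genes of that list was 184, 190 and 252 RPKM in MEF and 109 and 84.8 in GFP-negative cells.

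Markers of other cell types shared no direction, and some lists had higher sums in both treated libraries than in any MEF library. These lists hold 3 to 7 tested genes, where 1 call is 14.3% of a list of 7. Over all tested genes 3.53% were called higher and 4.09% lower. The summed level of the 11 measured macrophage and blood markers was 69.7 and 53.9 RPKM in the GFP-negative libraries, of which Cd14, a receptor for lipopolysaccharide that fibroblasts can also make, gave 69.3 and 52.3. Of the 11, C1qa, Fcer1g, Cd52 and Hba-a1 were at 0 in both treated libraries, and Lyz2, lysozyme of myeloid cells, fell from 15, 22.6 and 97.2 RPKM in MEF to 0 and 0.0194 in GFP-negative cells (-5.05 ± 0.64 SE, limma adjusted p = 0.00207). Of 7 tested markers 1 rose (Cd14) and 1 fell (Lyz2, whose near-identical paralog Lyz1 could share its reads). Sox10, a factor of neural crest and glia, was at 1.54, 1.44 and 1.39 RPKM in MEF and at 0 in both treated libraries (-1.30 ± 0.06 SE, limma adjusted p = 1.25e-05), where 3 reads would be 0.0284 and 0.0304 RPKM. Of 7 tested neural and glial genes 2 rose, the neurofilament Nefm (2.57 ± 0.19 SE, limma adjusted p = 0.000141) and the intermediate filament Nes (1.67 ± 0.43 SE, limma adjusted p = 0.0463, or 0.067 to 0.126 without MEF replicate 1, 2 or 3 or GFP-negative replicate 2), or 1 without any 1 MEF library. The summed level of all 18 measured neural and glial genes was 16.3, 14.1 and 8.87 RPKM in MEF and 26.6 and 55.6 in GFP-negative cells. Of 4 keratinocyte genes 1 rose, Krt5, a keratin of basal epithelia, from 0.0290, 0.0290 and 2.11 RPKM in MEF to 6.34 and 4.79 in GFP-negative cells (2.13 ± 0.42 SE, limma adjusted p = 0.017, or 0.0886 without GFP-negative replicate 1). The summed level of the 7 measured keratinocyte genes was 2.52, 1.84 and 9.27 RPKM in MEF and 9.40 and 22.3 in GFP-negative cells. The summed level of the measured muscle genes was 3.48, 3.58 and 6.63 RPKM in MEF and 0.570 and 3.31 in GFP-negative cells, and 0 of 4 tested were called. The summed level of the measured endothelial markers was 3.96, 4.37 and 4.39 RPKM in MEF and 0.522 and 0.827 in GFP-negative cells, and 0 of 4 tested were called (1 lower without MEF replicate 3). Of 3 adipocyte genes 1 fell, the lipase Lpl, from 30.6, 29.5 and 27.1 RPKM in MEF to 6.14 and 6.53 in GFP-negative cells (-2.03 ± 0.20 SE, limma adjusted p = 0.000594). Of 6 cartilage and bone genes Spp1 rose and Mgp, an inhibitor of mineralisation, fell from 147, 160 and 162 RPKM in MEF to 16.5 and 2.04 in GFP-negative cells (-4.43 ± 0.60 SE, limma adjusted p = 0.00302). Summed levels in MEF were 67.0, 57.2 and 60.7 RPKM for adipocyte genes and 161, 179 and 260 for cartilage and bone genes. In GFP-negative cells they were 42.0 and 61.5 RPKM, and 472 and 392, most of the latter from Spp1. The part of cells of other types in the results above was not tested.

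Levels in ESC place the calls beside cells of another kind. Of the 376 genes that rose 174 (46.3%) were under 1 RPKM in each of ESC replicates 1, 2 and 3, and of the 435 that fell 142 (32.6%) were, against 30.3% of all tested genes. The filter took in the ESC libraries, so genes kept through ESC values alone count in the 30.3%. Only 6681 of the 10647 tested genes reached 1 RPKM in 2 of the 5 compared libraries. The excess over 30.3% is thus in part set by the filter. Ptgs2 was at 1.27, 1.55 and 0.455 RPKM and Stc1 at 0.120, 0.276 and 0.001 in ESC replicates 1, 2 and 3. In the GFP-positive clusters, 1 library labelled with VC6TF plus Z and set against no replicate, Spp1 was at 250 RPKM, Crabp1 at 50.6, Tagln at 3.87 and Col1a1 at 21.1. Star stood at 87.5 RPKM there, and Areg at 0.547.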

How the data were processed

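RNA of 13 libraries was sequenced, and 5 of them enter the comparison. The authors deposited 1 table with an RPKM column per library, and no counts. Reads were processed with TopHat 1.3.0 and build mm9, per the submitters' processing notes. How reads were counted, with which annotation, gene length and strand setting, and what was filtered is not given in the sources used here. Of 15184 rows, 8 that shared 1 identifier were left out, and 0 columns were unused. The product of RPKM and gene span gave whole multiples of 1 step per library for 64.5% to 68.1% of low values (within 0.05 steps) in 10 libraries, from which depth and reads were estimated. The other 3 (both CiPSC libraries and ESC replicate 4) were taken as per kilobase of exon. Estimated reads and floors of 3 reads cover counting error only.

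Libraries were grouped by their labels, and values were analysed as log2(RPKM + 1) without rescaling of libraries. The filter kept genes that reached 1 RPKM in 2 or more of the 13 libraries, and these were tested with limma 3.58.1 in R 4.3.3, using 1 coefficient per group, a term for the exon scale, the trend option and p-values adjusted after Benjamini and Hochberg over all tested genes. The procedure was tested on simulated data with 200 changed genes. Of those changed by a log2 of 2 in size 71% were called, and of those changed by 3, 79%. Of 155 calls 5 were false. The simulation gave each gene the same spread in every group, so it does not cover the wider spread of the GFP-negative pair. Of 877 genes on 39 lists 766 were in the table and 620 were tested.

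The members, lists and test were chosen with earlier results of these data known, so no list is independent evidence of its direction. Named genes are up to 10 called genes per direction with the largest change, no overlap between groups and a mean of 10 RPKM or more in the higher group, the members of smallest p in each list (at most 4), and 17 fixed genes. Other called members of a list are named to complete its count, and members that were not called, Cldn4 and Gadd45g were chosen after their values were seen. Alternatives covered each library, the pseudocount, the filter, the libraries fitted, the scale term, scaling, the trend and a replicate block.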

Additional observations from a re-analysis of the deposited data

How the results depend on the processing

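The number of genes called was 811, with 376 higher and 435 lower. The groups did not overlap in any of the 811, so the sign of their change could not turn when a library was left out, and signs are not counted as a check here. Leaving out 1 library in turn gave 562 to 1499 genes called, 262 to 708 higher and 204 to 791 lower. A pseudocount of 0.1 gave 1391 called, of which 923 were lower. The 5 libraries alone gave 5, with 3 higher and 2 lower, and 2 of the 146 called list members. The 10 gene-span libraries alone gave 453, with 233 higher and 220 lower. Without the term for the exon scale 376 were called, with 183 higher and 193 lower, and 97 list members. Median scaling gave 626 higher. Quantile normalization of the 5 libraries gave 81, with 64 higher and 17 lower, and 22 list members. Of the 102 named genes that were called, 4 were called in the 5 libraries alone, 27 after quantile normalization, 73 without GFP-negative replicate 1 and 95 without MEF replicate 3. No filter on low values, a filter on the 5 libraries and no trend kept the total within 1.5 times.

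No label says that replicate numbers pair the libraries. Same-numbered libraries of MEF and GFP-negative cells had deviations from their group means correlated at -0.04. That value does not settle whether they were paired, so fits with and without a replicate block are given. With the block, on replicates 1 and 2 of MEF, GFP-negative cells and ESC, 141 genes were called (61 higher, 80 lower, 41 list members). Without it the same 6 libraries gave 353 (161 higher, 192 lower, 85 list members).

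Precision is limited by the 2 treated libraries, which differed over 4-fold in 283 of 1351 genes at 10 RPKM.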

Other observations

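Several gene groups not described above are given here as values, beside 3.53% of all tested genes called higher and 4.09% called lower. Counts in parentheses after a list are those with 1 library left out in turn. Of 19 tested AP-1 and immediate early genes 3 rose and 2 fell (1 to 3 higher, 1 to 3 lower), and their median of -0.24 became 0.21 under median scaling. Ier3, an early gene that protects from apoptosis, was at 40.2, 40.7 and 20.7 RPKM in MEF and 201 and 210 in GFP-negative cells (2.63 ± 0.38 SE, limma adjusted p = 0.00414). Egr2, a zinc finger factor (2.03 ± 0.44 SE, limma adjusted p = 0.0245, or 0.064 to 0.0703 without MEF replicate 1 or 2 or GFP-negative replicate 2), and Dusp6, a phosphatase of ERK (1.90 ± 0.39 SE, limma adjusted p = 0.0193, or 0.0526 to 0.082 without MEF replicate 1 or GFP-negative replicate 1), also rose. Ier2 fell from 32.7, 15.1 and 73.7 RPKM in MEF to 1.07 and 2.42 in GFP-negative cells (-3.69 ± 0.69 SE, limma adjusted p = 0.0138, or 0.0775 without GFP-negative replicate 1), so members of this early gene list moved in both directions. Of 12 tested steroidogenic and secreted hormone genes 4 rose (Stc1, Spp1, Grem1 and Star) and 3 fell (3 to 5 higher, 0 to 3 lower), with a median of -0.32 that became 0.04 under median scaling. The 3 that fell were Igfbp3, which binds insulin-like growth factors (-2.15 ± 0.46 SE, limma adjusted p = 0.0234, or 0.0527 to 0.11 without MEF replicate 1 or GFP-negative replicate 1), Penk and Stc2, the paralog of Stc1 (-1.19 ± 0.29 SE, limma adjusted p = 0.0392, or 0.0602 to 0.154 without MEF replicate 1, 2 or 3 or GFP-negative replicate 1 or 2). Stc1 and Stc2 thus lay on opposite sides of the comparison, Stc2 at 1.36, 1.32 and 1.81 RPKM in MEF and 0.0212 and 0.159 in GFP-negative cells.

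Of 19 tested Hox genes, which record position along the body axis, 0 rose and 6 fell (0 to 2 higher, 2 to 7 lower), with a median of -0.84. The 2 lower were without GFP-negative replicate 1. Hoxc10 was at 2.09, 2.47 and 2.60 RPKM in MEF and 0.0367 and 0.354 in GFP-negative cells (-1.51 ± 0.14 SE, limma adjusted p = 0.000452), and Hoxd9 at 2.14, 1.04 and 2.21 and 0 in both treated libraries (-1.45 ± 0.18 SE, limma adjusted p = 0.00186). Of 10 tested EMT factors and cadherins 2 rose, Twist2 and Zeb2 (1.02 ± 0.20 SE, limma adjusted p = 0.0179, or 0.0885 without GFP-negative replicate 1, or a log2 change of 0.82 without MEF replicate 3), and 1 fell, Foxc2 (-1.98 ± 0.41 SE, limma adjusted p = 0.0204, or 0.052 to 0.107 without MEF replicate 2 or GFP-negative replicate 1), with 1 to 2 higher and 0 to 2 lower when 1 library was left out. Glycolysis gave 2 higher of 24 (0 without MEF replicate 1 or 2), the lactate transporter Slc16a3 (2.69 ± 0.56 SE, limma adjusted p = 0.0207, or 0.063 to 0.107 without MEF replicate 1 or 2 or GFP-negative replicate 1) and Ldhb (1.46 ± 0.34 SE, limma adjusted p = 0.0331, or 0.0595 to 0.0941 without MEF replicate 1, 2 or 3 or GFP-negative replicate 2), while Gapdh was at 18.0, 14.7 and 25.3 RPKM in MEF and 14.0 and 25.2 in GFP-negative cells. Cholesterol synthesis gave 2 lower of 19 (0 to 2 higher, 1 to 4 lower), Insig1 (-2.41 ± 0.53 SE, limma adjusted p = 0.0258, or 0.0689 to 0.107 without MEF replicate 1 or 2 or GFP-negative replicate 1) and Fdps (-1.38 ± 0.25 SE, limma adjusted p = 0.0109). The amino acid response gave 3 lower of 21 (0 to 1 higher, 3 to 4 lower), among them the transporter Slc7a5 (-2.74 ± 0.37 SE, limma adjusted p = 0.00288) and the serine synthesis enzyme Phgdh (-1.62 ± 0.26 SE, limma adjusted p = 0.0071). Heat shock and unfolded protein genes gave 2 lower of 24 (0 to 2 higher, 1 to 3 lower), with a median of -0.10 that became 0.33 under median scaling. Lysosome genes gave 1 higher and 2 lower of 21 (0 to 2 higher, 0 to 2 lower), and neither count held without GFP-negative replicate 1 or MEF replicate 2, which gave 0 and 0.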
